A study of Mus musculus with 2 samples.

Results

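The genes described here are the DNA repair genes of the array, chosen by symbol: the Rad genes followed by a number, Xrcc, Ercc, Fanc, Msh, Mlh, Parp and Brca genes, the polymerase delta and epsilon genes, Lig1, Lig3 and Lig4, Xpa, Xpc, the RPA subunits, Atm, Atr and the Chek kinases. The rule found 59 genes, read by 61 probes, among 13697 genes that a probe names singly. The RNA came from mouse embryoid bodies, the rounded aggregates that embryonic stem (ES) cells form when they differentiate, made here from Elongin A-/- or from Elongin A+/+ ES cells. Both cultures were in DMEM/F12 with serum and N2 supplement, received 2 µM retinoic acid and were collected at day 4. There was 1 array for each genotype, so no difference below has a replicate check or a test. Genotype cannot be told apart from the cell line, the culture or the array, and the labels do not say whether each line is a single clone or how the Elongin A gene was disrupted.

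DNA repair genes encode the enzymes that keep the genome intact. Excision pathways cut out damaged or mispaired bases, ligases and polymerases refill and seal the gap, and double-strand breaks are either joined end to end or copied from the sister DNA by homologous recombination. The Fanconi anaemia proteins unhook crosslinks between strands, and the checkpoint kinases hold the cell cycle while repair proceeds. Elongin A stimulates elongation by RNA polymerase II, and in yeast and mammalian cells it also belongs to a ubiquitin ligase that acts on polymerase stalled at DNA damage, which links it to this group of genes. ES cells and early progenitors divide fast and are known for high levels of replication-linked repair factors.

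Values are intensities after quantile normalisation, which gives both arrays the same distribution, and differences are log2 values of the Elongin A-/- array minus the Elongin A+/+ array. The median intensity of an array, 1.03, served as a floor. A gene counts as measured where either array or both exceeded the floor, and a difference with 1 array under the floor is a bound, written "at least". Intensities of different probes are not on a common scale, so levels are set against each other mainly between arrays. Where genes are ranked or split by signal, or their intensities summed, the unlike scales of the probes limit the reading. The only error to be had from these data is how far several probes of a gene disagree, an SD of 0.43 on the log2 difference (95% interval 0.39 to 0.47, 224 genes). It was taken from probes above the floor on both arrays and holds no error between cultures. A difference inside it is therefore not shown to be absent, nor one outside it to be real. Of the 59 repair genes, 58 had 1 probe. The exception was Fancm, whose brighter probes differed by -0.37 and -0.44 and whose dimmest probe lay below the floor on both arrays.

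Both arrays gave most DNA repair genes nearly the same signal. Of the 53 measured, 40 lay within 1.5-fold (75.5%, against 69.4% of all measured genes), and the median difference was -0.10 (95% binomial interval over members -0.18 to 0.08), against -0.02 over all 9568 measured genes. That interval treats genes as independent and covers no error between cultures, so it does not measure the uncertainty of a genotype difference. At least 2-fold higher on the Elongin A-/- array were 2 repair genes, Parp16 and Parp12, which is 3.77% of those measured, against 6.76% of all measured genes. At least 2-fold lower were 5, namely Fancc, Rad52, Rad9b, Rad18 and Fancd2os, or 9.43%, against 5.97% of all measured genes. At 1.5-fold the counts were 6 higher and 7 lower, or 11.3% and 13.2%, against 15.8% and 14.8% of all measured genes. With the values as deposited the 2-fold counts were 4 higher and 5 lower, since Pold2 and Pold4 then passed, while the shares over all measured genes became 8.36% and 4.7%. The 1.5-fold counts were then 11 higher and 7 lower, against 19.5% and 11.7% of all measured genes. The shares of repair genes past either fold were near the background of these arrays.

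**Figure D1:**
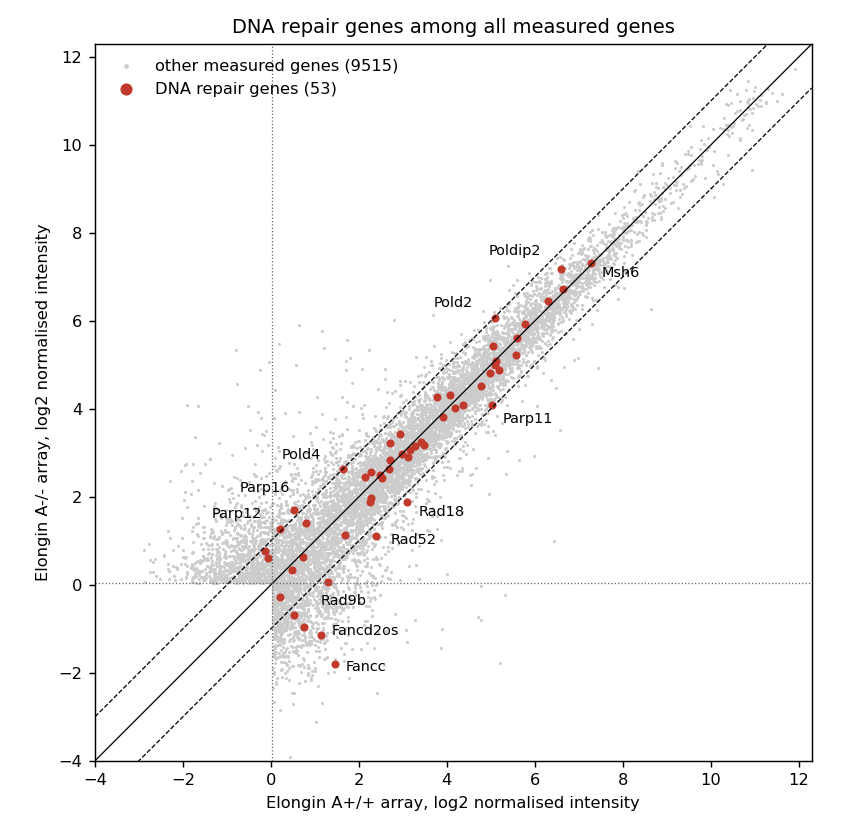
Log2 normalised intensity on the Elongin A-/- array (vertical) against the Elongin A+/+ array (horizontal) for the 53 measured DNA repair genes (red) and the other measured genes (grey). The solid line marks equal signal, the dashed lines a 2-fold difference and the dotted lines the floor; most repair genes with high signal lie close to the solid line, and Rad18, with 3.71 in Elongin A-/- and 8.60 in Elongin A+/+ bodies, is the one past 2-fold with the most signal.

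Split by their mean signal, the repair genes with more signal were mostly close to equal on both arrays. The geometric mean of both arrays exceeded 5.20, the 75th percentile of intensity, for 34 repair genes, with Atm at 5.34 just inside and Xrcc4 at 4.92 just outside. Of these 34, 31 lay within 1.5-fold. The exceptions were Rad18, Parp11 and Pold2, which makes 8.82% past 1.5-fold, against 20.1% of the 4948 genes above the same level. The median size of the difference, whatever its sign, was 0.18 for these 34 and 0.29 for the 4948. Among the other 19 measured repair genes, 2 were at least 2-fold higher and 4 lower, or 10.5% and 21.1%, against 10.9% and 9.65% of 4620 genes at that level. This split was chosen after the data were seen, no test of it was possible, and the larger differences of dim genes include bounds at the floor. The count past 1.5-fold also depends on the scaling. With the values as deposited, Ercc3 (0.60), Lig4 (0.60), Poldip2 (0.65) and Rad51ap1 (0.64), all among the 34, passed 1.5-fold too. The share of all genes at this level was not taken for those values. The contrast of 8.82% with 20.1% is therefore shown only for the normalised values.

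**Figure D2:**
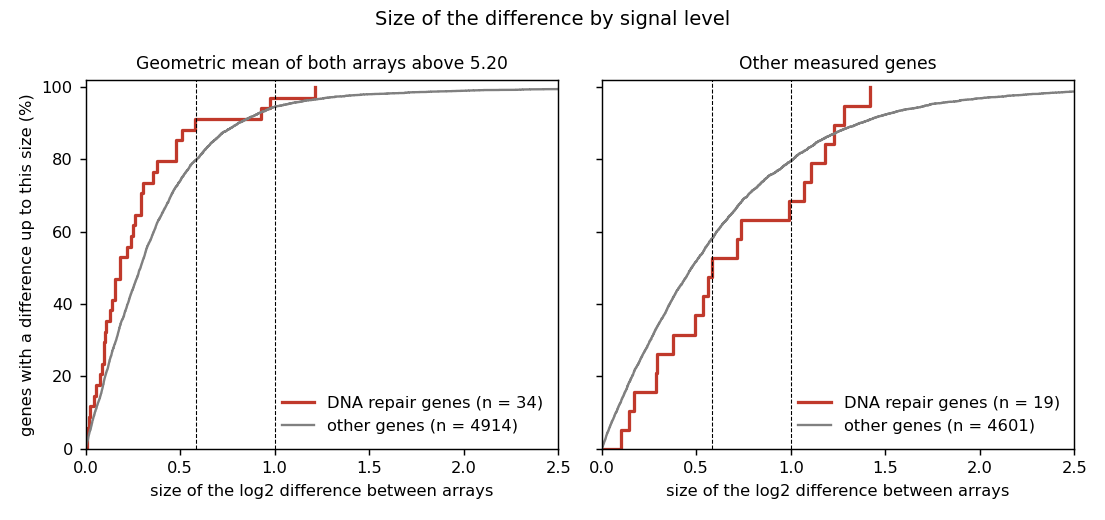
Share of genes (vertical, %) whose log2 difference has at most the size on the horizontal axis, for DNA repair genes (red) and other measured genes (grey), with dashed lines at 1.5-fold and 2-fold. On the left are genes whose geometric mean over both arrays is above 5.20, and the red curve lies above the grey one at 1.5-fold. On the right, among the other measured genes, the red curve lies below at 2-fold. Both panels show normalised values.

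For orientation, the promoter DNA of 4 repair genes is printed here. Pold2 and Pold4, accessory subunits of one polymerase, stood nearly 2-fold higher on the Elongin A-/- array, while its catalytic subunit Pold1 did not. Rad18 and Rad52 stood more than 2-fold lower there. Each sequence is the 150 bases before the first start that RefSeq lists for the gene (GRCm38.p6), 5′ to 3′ on the gene's own strand. They lie at chr11:5878257-5878406 (minus strand) for Pold2, chr19:4231743-4231892 (plus) for Pold4, chr6:112696671-112696820 (minus) for Rad18 and chr6:119902548-119902697 (plus) for Rad52. Capitals mark matches on either strand to CCAAT, the NF-Y box, to TTCCCGC or TTGGCGC or TTCGCGC, forms of the site of the cell cycle factor E2F, or to CCGGAAG, the ETS site.
Pold2: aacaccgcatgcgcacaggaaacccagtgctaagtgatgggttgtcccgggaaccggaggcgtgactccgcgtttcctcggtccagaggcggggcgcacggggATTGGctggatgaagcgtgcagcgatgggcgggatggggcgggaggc
Pold4: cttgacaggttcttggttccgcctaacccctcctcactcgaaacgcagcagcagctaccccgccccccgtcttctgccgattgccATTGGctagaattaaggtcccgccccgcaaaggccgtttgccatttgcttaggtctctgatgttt
Rad18: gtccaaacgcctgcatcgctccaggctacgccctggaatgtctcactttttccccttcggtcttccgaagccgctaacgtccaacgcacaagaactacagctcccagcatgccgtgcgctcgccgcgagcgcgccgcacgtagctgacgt
Rad52: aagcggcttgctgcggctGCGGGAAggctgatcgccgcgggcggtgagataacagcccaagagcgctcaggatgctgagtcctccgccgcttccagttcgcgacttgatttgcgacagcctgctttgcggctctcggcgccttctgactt

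Within these windows Pold2 and Pold4 each hold 1 CCAAT box, on the reverse strand, Rad52 holds 1 E2F form and Rad18 holds none of the letters searched. Pold2 and Rad18 each have 2 listed starts. Over 250 bases the Rad18 start shown does hold CCGGAAG, and the Pold2 start not shown holds no CCAAT. Over the 250 bases before the start, promoters could be matched for 50 of the 59 repair genes, 59 promoters in all. An E2F form occurred in 18 of them (30.5%), against 11.3% of 9906 promoters of measured genes and 6.69% of all 32851 promoters of the table. CCAAT occurred in 45.8%, against 35.5% of promoters of measured genes and 33.8% of all promoters, and CCGGAAG in 15.3%, against 12.2% and 6.91%. The 15 measured repair genes with an E2F form had a median difference of -0.02 and the 31 without one of -0.10. A match of letters is a description of the window and not a site of binding.

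Mismatch repair corrects replication errors, and its measured genes differed by 0.04 and -0.14, both inside the disagreement between probes. Msh6, whose protein recognises mismatched bases, read 161 on the Elongin A-/- array and 156 on the Elongin A+/+ array. Msh5, a meiotic member of the family, read 1.26 in Elongin A-/- and 1.40 in Elongin A+/+ bodies, close to the floor on both. Msh3 and Msh4 were below the floor on both arrays.

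In base excision and strand break repair 3 genes differed by between -0.10 and 0.16. Lig1, the ligase that seals Okazaki fragments and long repair patches, read 106 in Elongin A-/- and 101 in Elongin A+/+ bodies. Xrcc1, the scaffold of single-strand break repair, read 61.4 in Elongin A-/- and 55.0 in Elongin A+/+ bodies. Parp1, which senses breaks and builds poly(ADP-ribose) there, read 32.1 in Elongin A-/- and 34.4 in Elongin A+/+ bodies.

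Nucleotide excision repair removes bulky lesions such as those of ultraviolet light, and its transcription-coupled branch begins at a stalled polymerase. Of its 9 genes 8 were measured, with a median of 0.00 and none past 2-fold. Among those above the floor on both arrays, Xpa, which verifies the lesion, read 37.4 in Elongin A-/- and 47.8 in Elongin A+/+ bodies. Ercc8, the substrate receptor of the ubiquitin ligase in the transcription-coupled branch, read 28.0 in Elongin A-/- and 31.8 in Elongin A+/+ bodies. Rad23b, the partner of Xpc, read 5.66 in Elongin A-/- and 5.56 in Elongin A+/+ bodies. These 3 differences lie between -0.35 and 0.03, inside the disagreement between probes.

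Among the nucleases and helicases of excision repair, 3 genes were under the floor on 1 array. Ercc1, a subunit of the nuclease on the 5′ side of the lesion, read 34.3 in Elongin A-/- and 34.8 in Elongin A+/+ bodies. Its partner Ercc4 read 1.52 in Elongin A-/- and 0.96 in Elongin A+/+ bodies, the second under the floor, at least 1.48-fold higher. Ercc5, the nuclease on the 3′ side, read 1.71 in Elongin A-/- and 0.91, under the floor, in Elongin A+/+ bodies, at least 1.67-fold higher. The helicases of TFIIH, the factor shared by transcription and repair, lay on opposite sides of 0. Ercc3 read 19.2 in Elongin A-/- and 13.8 in Elongin A+/+ bodies, a difference of 0.48. Ercc2 read 0.62, under the floor, in Elongin A-/- and 1.44 in Elongin A+/+ bodies, at least 1.41-fold lower. Xpc, the damage sensor, was below the floor on both arrays.

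End joining repairs double-strand breaks without a template, and the Ku subunits that bind the broken ends differed by no more than 0.10. Xrcc6 read 48.7 in Elongin A-/- and 48.4 in Elongin A+/+ bodies. Xrcc5 read 8.33 in Elongin A-/- and 8.91 in Elongin A+/+ bodies. The complex that closes the break was higher by little: Lig4, the ligase, read 10.8 in Elongin A-/- and 7.72 in Elongin A+/+ bodies (difference 0.48), and its cofactor Xrcc4 read 5.45 in Elongin A-/- and 4.44 in Elongin A+/+ bodies (difference 0.29). Lig4 is the only measured repair gene on chromosome 8, where the median over all measured genes was 0.43. Parp3, a PARP that acts at breaks, read 0.52, under the floor, in Elongin A-/- and 1.68 in Elongin A+/+ bodies, at least 1.64-fold lower.

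Homologous recombination held 1 gene past 2-fold, Rad52, whose protein anneals single strands. Rad52 read 2.15 in Elongin A-/- and 5.24 in Elongin A+/+ bodies, a difference of -1.28 or 2.43-fold lower, on 1 probe of low signal. The other measured genes of the pathway lay within 1.5-fold. Rad51ap1, a factor of homologous recombination, read 9.33 in Elongin A-/- and 6.55 in Elongin A+/+ bodies (difference 0.51). Rad54l, the motor of strand exchange, read 19.9 in Elongin A-/- and 16.7 in Elongin A+/+ bodies (difference 0.25). Xrcc3, which acts in homologous recombination, read 7.51 in Elongin A-/- and 8.75 in Elongin A+/+ bodies (difference -0.22). Brca1, which directs breaks into this pathway, lay near the floor, with 1.54 in Elongin A-/- and 1.65 in Elongin A+/+ bodies.

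The Fanconi anaemia pathway acts through a core complex that holds a ubiquitin ligase, and its core subunits lay on both sides of 0. Fancc read 0.29, under the floor, in Elongin A-/- and 2.75 in Elongin A+/+ bodies, at least 2.68-fold lower and the widest difference among the repair genes at this floor. Fancg read 2.63 in Elongin A-/- and 1.75 in Elongin A+/+ bodies, a difference of 0.59. Fancb read 7.90 in Elongin A-/- and 7.96 in Elongin A+/+ bodies. Fancl, the ligase of the core, read 0.82, under the floor, in Elongin A-/- and 1.16 in Elongin A+/+ bodies, at least 1.13-fold lower. Fancm, the translocase that recruits the core, read 3.67 in Elongin A-/- and 4.76 in Elongin A+/+ bodies by its brightest probe. Fanci was below the floor on both arrays.

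Checkpoint genes lay within 1.5-fold except for Rad9b. Atm, the kinase activated by double-strand breaks, read 5.92 in Elongin A-/- and 4.82 in Elongin A+/+ bodies (difference 0.29). Chek1, the kinase that restrains the cell cycle under replication stress, read 8.92 in Elongin A-/- and 9.77 in Elongin A+/+ bodies (difference -0.13). Rad9a and Rad1, parts of the clamp loaded at damaged DNA, differed by 0.11 and -0.18, and Rad17, the clamp loader, by -0.09. Rad9b, a paralogue of Rad9a, read 1.05 in Elongin A-/- and 2.47 in Elongin A+/+ bodies, a difference of -1.23 with the lower value just above the floor. Chek2 was below the floor on both arrays.

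The replicative polymerases, which also refill repair gaps, differed between and within enzymes. In DNA polymerase delta, of which 3 subunits were read here, the accessory subunits Pold2 and Pold4 were nearly 2-fold higher on the Elongin A-/- array, and the catalytic subunit was not. Pold2 read 67.6 in Elongin A-/- and 34.4 in Elongin A+/+ bodies (difference 0.98, or 0.56 with the median of its chromosome, 11, taken off). Pold4 read 6.17 in Elongin A-/- and 3.11 in Elongin A+/+ bodies (difference 0.99). Pold1, the catalytic subunit, read 14.0 in Elongin A-/- and 15.1 in Elongin A+/+ bodies (difference -0.11). Among genes of proteins that bind this polymerase, Poldip2 read 144 in Elongin A-/- and 96.7 in Elongin A+/+ bodies (difference 0.58, or 0.16 with the median of its chromosome, 11, taken off). Poldip3 read 43.1 in Elongin A-/- and 33.2 in Elongin A+/+ bodies, and its difference of 0.38 is inside the disagreement between probes.

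In DNA polymerase epsilon the 4 subunits were lower by small amounts, between -0.30 and -0.15, each less than the disagreement between probes. Pole, the catalytic subunit, read 16.3 in Elongin A-/- and 18.1 in Elongin A+/+ bodies. Among the accessory subunits, Pole2 read 29.7 in Elongin A-/- and 36.4 in Elongin A+/+ bodies. Pole3 read 17.1 in Elongin A-/- and 20.5 in Elongin A+/+ bodies, and Pole4 read 9.13 in Elongin A-/- and 11.3 in Elongin A+/+ bodies. Subunits of RPA, which coats single-stranded DNA, lay on either side, with 87.7 in Elongin A-/- and 79.5 in Elongin A+/+ bodies for Rpa1 (difference 0.14). Rpa2 read 23.1 in Elongin A-/- and 27.4 in Elongin A+/+ bodies (difference -0.24). Rad18, the ubiquitin ligase that marks PCNA at blocked forks, read 3.71 in Elongin A-/- and 8.60 in Elongin A+/+ bodies, a difference of -1.21 or 2.32-fold lower. Grouping the subunits by enzyme was done after the values were seen.

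**Figure D3:**
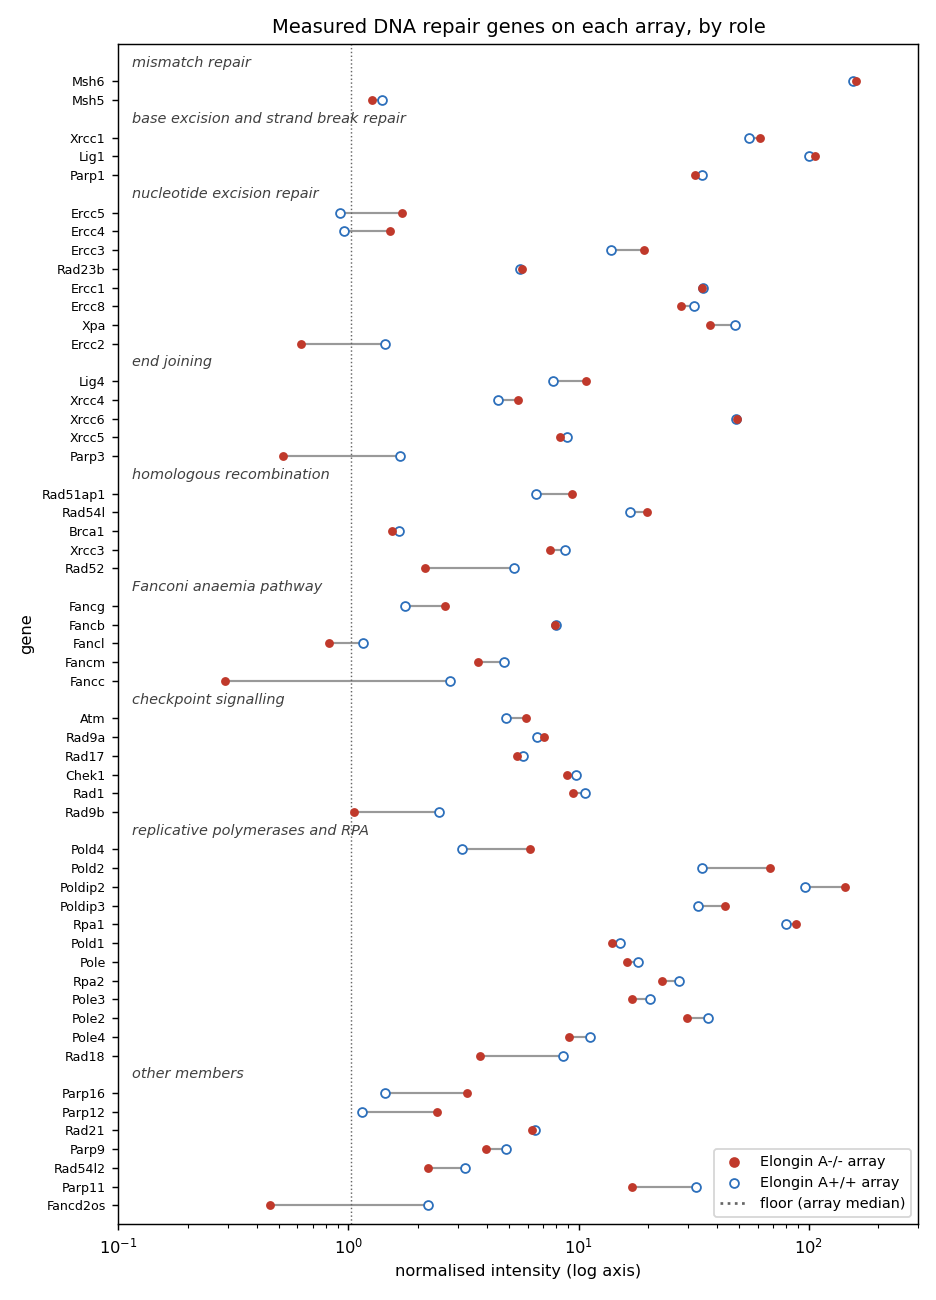
Normalised intensity (log axis) of the 53 measured DNA repair genes on the Elongin A-/- array (filled red) and the Elongin A+/+ array (open blue), grouped by role, with the floor as a dotted line. The longest bars belong to Fancc, Fancd2os and Parp3, each under the floor in Elongin A-/- bodies, while the points of Msh6, Lig1, Xrcc6 and Ercc1 nearly coincide.

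The genes that the symbol rule caught outside these roles were 4 PARPs and 4 others. Parp16, an enzyme of the endoplasmic reticulum membrane, read 3.27 in Elongin A-/- and 1.44 in Elongin A+/+ bodies, 2.27-fold higher. Parp12, an interferon-induced PARP, read 2.42 in Elongin A-/- and 1.15 in Elongin A+/+ bodies, 2.10-fold higher from near the floor. Parp11, a PARP of the nuclear envelope, went the other way, with 17.1 in Elongin A-/- and 32.5 in Elongin A+/+ bodies (difference -0.93). Fancd2os, named for lying opposite Fancd2, read 0.45, under the floor, in Elongin A-/- and 2.21 in Elongin A+/+ bodies, at least 2.15-fold lower. The others were within 1.5-fold: Parp9 differed by -0.29, Rad54l2, a helicase of the Rad54 family, by -0.54, and Rad21, the cohesin subunit, by -0.05. Ercc6l was below the floor on both arrays. Over these 7 measured genes 4 passed 1.5-fold, against 9 of the 46 measured genes with a named repair role and 30.6% of all measured genes.

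Several of the repair genes furthest apart lie on chromosomes whose median difference was itself away from 0. The chromosome of every gene was taken from GRCm38.p6. The median of all measured genes was -0.26 on chromosome 6, 0.41 on chromosome 11 and 0.43 on chromosome 8, and between -0.13 and -0.00 on each of the 17 other chromosomes outside Y. Of 7 measured repair genes on chromosome 6, 3 were at least 2-fold lower (Rad52, Rad18 and Fancd2os), against 11.2% of all 518 measured genes there, and Parp11 was close to that size. Parp12 and Rad51ap1, on the same chromosome, were higher, and the part of the chromosome in these differences was not tested. On chromosome 11, 1 of 5 repair genes, Pold2, passed 1.5-fold upward, against 36.4% of its 803 measured genes, and Poldip2, at 0.58, was just short of it. With each chromosome's median taken off, Rad52 stood at -1.02, Rad18 at -0.95, Fancd2os at -0.84 and Parp11 at -0.66, while Pold2 stood at 0.56 and Poldip2 at 0.16. Pold4, on chromosome 19, stayed at 0.99. Over the 40 measured repair genes outside chromosomes 6, 8 and 11 the median was -0.09, against -0.05 over all 7725 measured genes outside them. Of these 40 repair genes 1 was at least 2-fold higher and 2 lower. Of all measured genes, on any chromosome, 6.76% were at least 2-fold higher and 5.97% lower. The shares outside chromosomes 6, 8 and 11 alone were not taken.

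**Figure D4:**
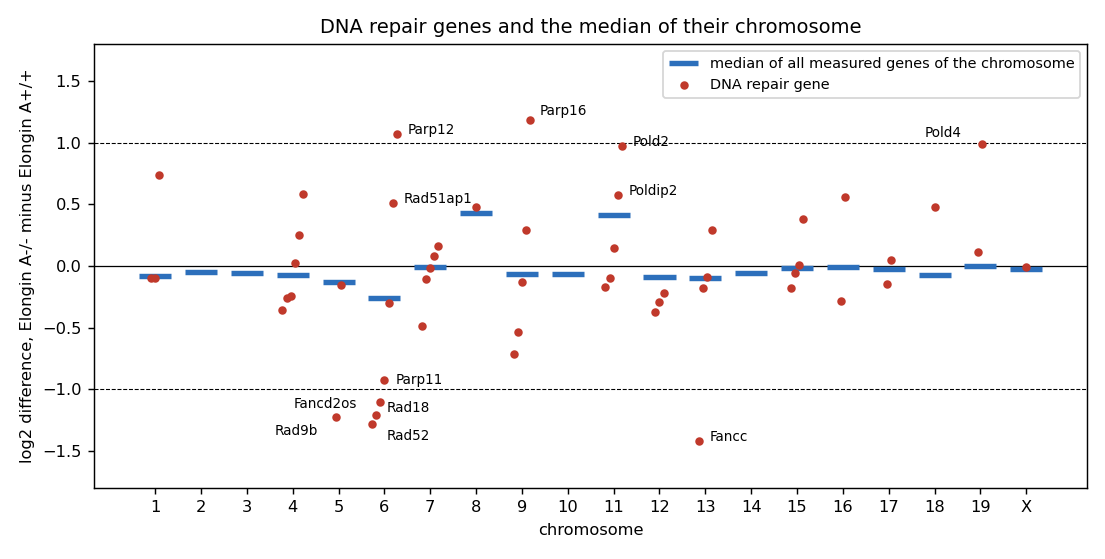
Log2 difference, Elongin A-/- minus Elongin A+/+, of each measured DNA repair gene (red points) by chromosome, with the median over all measured genes of that chromosome as a blue bar and dashed lines at 2-fold. Chromosome 6 holds Rad52, Rad18 and Fancd2os below its bar at -0.26, and Pold2 lies above the bar of chromosome 11 at 0.41.

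Other repair genes, listed by pathway outside the symbol rule, lay near the background too. Of 98 named on the array 90 were measured, and 68 of these were within 1.5-fold (75.6%, against 69.4% of all measured genes). Their median was 0.06 (95% interval over genes -0.10 to 0.26), and 5 were at least 2-fold higher (5.56%, against 6.76%) and 4 lower (4.44%, against 5.97%). At least 2-fold higher was Prkdc, the catalytic subunit of the DNA-dependent protein kinase that Ku recruits, with 5.99 in Elongin A-/- and 2.17 in Elongin A+/+ bodies (2.76-fold), beside Ku genes that differed by 0.10 at most. Neil2 (2.53-fold) and Neil3 (2.04-fold), DNA glycosylases, and Brip1 (2.11-fold) and Recql (at least 2.03-fold), helicases, were also higher. Neil3 lies on chromosome 8 and Brip1 on chromosome 11. Wee1, the kinase that holds Cdk1 inactive, was at least 3.35-fold lower, Wdr48, the partner of the deubiquitinase Usp1, 2.76-fold, Atrip, the partner of the kinase Atr, 2.24-fold, and Gtf2h5, the smallest subunit of TFIIH, 2.09-fold. Each of these 9 values rests on 1 probe, and none reached an intensity above 10.2 on either array.

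Genes that move with cell division or with p53 were looked at beside them. Of 23 measured proliferation genes none was at least 2-fold higher and 1, Cdk1, was lower (1.08 in Elongin A-/- and 2.30 in Elongin A+/+ bodies), with a median of 0.03 (95% interval -0.30 to 0.33). Ccnd1, with 52.7 in Elongin A-/- and 105 in Elongin A+/+ bodies, was just short of 2-fold lower. At 1.5-fold 3 proliferation genes were higher and 3 lower (13.0% each), against 15.8% and 14.8% of all measured genes. Of 16 measured p53 targets 1, Perp, was at least 2-fold higher and none lower, with a median of -0.06 (-0.41 to 0.51). The shares at least 2-fold higher and lower were 0% and 4.35% for proliferation genes and 6.25% and 0% for p53 targets. For all measured genes these shares were 6.76% and 5.97%. At 1.5-fold 3 p53 targets were higher and 3 lower (18.8% each). In lists this short 1 gene changes a share by several points, so nearness to the background is not shown.

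Marker genes of some cell types differed between the arrays. The median of 13 measured neural markers was -0.65, and 7 of them passed 1.5-fold, each downward. Past 2-fold were Neurog2 (-1.74), Stmn2 (-1.71) and Sox1 (-1.28, a bound), while Tubb3 read 168 in Elongin A-/- and 179 in Elongin A+/+ bodies. Map2 exceeded the floor on neither array, and the list summed to intensities of 321 (Elongin A-/-) and 461 (Elongin A+/+). Blood and endothelial markers were at least 2-fold higher in 10 of 13 measured, with summed intensities of 195 (Elongin A-/-) and 18.8 (Elongin A+/+), and Cdh5, Tie1 and Gata1 were below the floor on both arrays. Of 7 measured pluripotency markers 2 were at least 2-fold higher, Dppa4 (1.26) and Sall4 (1.26), and 1 lower, Zfp42 (-1.55), while their summed intensities were 41.1 (Elongin A-/-) and 40.6 (Elongin A+/+). Of all measured genes 6.76% were at least 2-fold higher, 5.97% at least 2-fold lower and 14.8% at least 1.5-fold lower. In bulk RNA fewer cells of a type and less RNA per cell cannot be told apart, and the part of these cell types in the repair gene values was not tested. The probe of Eloa, the Elongin A gene, read 3.57 (Elongin A-/-) and 3.87 (Elongin A+/+), and since the sources used here do not give its place relative to the disrupted part, it does not check the labels.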

How the data were processed

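Expression was measured in 2 cultures, 1 array each, of 32440 probes. Per the labels' protocols, 1 µg of total RNA was turned into digoxigenin-labelled cRNA for chemiluminescent detection with an Applied Biosystems kit. The values the authors deposited are linear intensities, positive throughout, with array medians of 1.03 (Elongin A-/-) and 1.02 (Elongin A+/+). How the authors corrected background, scaled and filtered the values was not given in the sources used here. Scanner files and detection calls were not analysed here. The number of arrays limits the precision.

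From these values, log2 intensities were quantile normalised, because the 75th percentiles of the arrays differed by 0.15 on the log2 scale. This hides any shift common to most genes. The floor was the array median, and values below it were set to it before differences were taken. Genes came from the platform annotation, in which 14253 probes name 1 gene, 243 several and 17944 none, and a gene took its probe with the highest mean. The gene list, the scaling, the floor and the alternatives were chosen with earlier results of these data known. Counts use folds of 2 and 1.5 with no p-value. Members past 1.5-fold, with several probes or among the 10 brightest are named with values, and most others too. Of other repair, proliferation and p53 genes, those past 2-fold are named, and Ccnd1, just short of it. Marker lists are given as counts, with genes named beyond that chosen after their values were seen. Intervals of medians are binomial over genes and cover no error between cultures. Alternatives were the values as deposited, centring, a loess trend (span 0.3), floors at percentiles 25 and 75, no floor, the mean over probes, genes with 1 probe, removing chromosome medians and leaving out chromosomes 6, 8 and 11. The steps were tested on simulated data, with changes placed only in genes with 1 probe and higher signal. That test does not cover values near the floor or the error of these arrays. Python 3.11.15, numpy, pandas and statsmodels were used. Promoters came from RefSeq, GRCm38.p6.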

Additional observations from a re-analysis of the deposited data

How the results depend on the processing

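The median difference of the measured repair genes lay between -0.10 and 0.04 over all settings, and was positive at 0.04 when no normalisation was applied. The median over all measured genes was then 0.07. Counts changed more. With the values as deposited 4 repair genes were at least 2-fold and 11 at least 1.5-fold higher (7.55% and 20.8%), against 8.36% and 19.5% of all measured genes. With the floor at percentile 75 the counts past 2-fold were 0 higher and 0 lower, and past 1.5-fold 1 higher and 2 lower, since dim genes were then set to the floor. Restricted to genes whose mean log2 level exceeds that percentile, a setting chosen after seeing the data, the counts were 0, 1, 1 and 2 in the same order. With no floor 8 of all 59 were at least 2-fold lower. With each chromosome's median removed 3 were at least 2-fold lower. Without chromosomes 6, 8 and 11, which leaves 40 genes, 1 was at least 2-fold higher, 2 were at least 2-fold lower and 3 were at least 1.5-fold lower. Shares over all genes were not taken for the floor at percentile 75, for no floor or for the chromosome settings. The counts in those settings therefore have no background beside them. Among the 13 repair genes past 1.5-fold, every one kept its sign wherever it was measured, but Rad52 stood at -0.01, Pold4 at 0.25 and Rad18 at -0.72 with the floor at percentile 75. A changed floor or probe rule could not reverse these signs, and every setting uses the same arrays, so the kept signs are no check of the differences. Fancc reached -3.25 with no floor, and its size is a bound only. No paired analysis was possible because there is 1 array per genotype, and no array could be left out.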
